A study of Mus musculus with 12 samples.

Results

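A set of 8 genes for secreted protease inhibitors and complement proteins, *Serpina3n*, *C4b*, *C3*, *C1ra*, *C1s1*, *Cfb*, *Serping1* and *Masp1*, was followed across mouse limb mesenchyme that expressed either bovine Creb5 or tdTomato. These are 8 of the 54532 genes in the deposited table, were matched by symbol to their Ensembl identifiers, and leave out the C1q genes on purpose. They were chosen by their normalised counts in this same table, with the difference between the groups in view, so that difference is given for each of the 8 genes as a description, with no test. Of the 8 genes, 7 had a normalised count of 10 or more in 6 or more of the 12 libraries and so entered the fit across 16733 genes. *C3* reached it in 5 libraries only, and it was fitted separately together with those genes.

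All embryos were at E14.5 and carried Cre recombinase under control of *Prrx1* sequences, which are active in limb bud mesenchyme, and both groups share this Cre. In iCreb5 embryos Cre released a bovine *Creb5* transgene with an HA tag, linked through an IRES to GFP, from the Rosa26 locus, and in tdTomato embryos it released the red fluorescent protein tdTomato. Fluorescent cells were sorted and their polyadenylated RNA was sequenced, with 6 iCreb5 and 6 tdTomato libraries from 4 labelled litters, where the study's design text names 6. Litter 3 gave 3 libraries of each group (3a, 3b and 3c), and litters 4, 5 and 6 gave 1 of each. Each litter has its own batch label, so that litter and batch cannot be told apart, and the number of embryos behind a library was not given in the sources used here. Between 9.02 and 53.3 M reads (M, 1000000) were recovered per library, and 1 read was worth 0.494 to 2.79 units of normalised count. *Creb5* itself had a normalised count of 2799 ± 214 (SD, n = 6) in iCreb5 and 1803 ± 299 (SD, n = 6) in tdTomato, and the groups did not overlap. That count may include transgene reads, whose assignment was not given in the sources used here.

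Complement is a cascade of plasma and tissue proteins in which serine proteases cut one another and then cut the thioester proteins C4 and C3, whose fragments attach to nearby surfaces. The C1r and C1s proteases start the classical pathway from C1q, MASP proteases start the lectin pathway, and factor B carries the protease of the alternative pathway, while C1 inhibitor, a serpin, blocks C1r, C1s and the MASPs. Serpins are suicide inhibitors that trap a protease on a bait loop, and Serpina3n is a mouse counterpart of human alpha-1-antichymotrypsin. The liver makes most circulating complement, but fibroblasts, chondrocytes and other mesenchymal cells make several components locally. *Serpina3n*, *C4b* and *C3* are also well-known targets of inflammatory cytokine signalling.

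Promoter windows are shown for *Serpina3n* and *C3*, the inhibitor and the central thioester protein, because both were lower in iCreb5 and both have an entry among the RefSeq promoters of GRCm38.p6. Each line gives the 250 bases before the annotated start, 5′ to 3′ on the gene's own strand, with matches to the searched motifs in capitals. The *Serpina3n* window is chr12:104406458-104406707 on the plus strand and the *C3* window is chr17:57228137-57228386 on the minus strand.
Serpina3n: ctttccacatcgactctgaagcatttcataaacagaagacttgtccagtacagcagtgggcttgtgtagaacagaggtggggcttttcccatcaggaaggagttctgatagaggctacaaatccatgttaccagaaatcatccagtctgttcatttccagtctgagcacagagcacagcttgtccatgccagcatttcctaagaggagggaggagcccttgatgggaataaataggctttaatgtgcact
C3: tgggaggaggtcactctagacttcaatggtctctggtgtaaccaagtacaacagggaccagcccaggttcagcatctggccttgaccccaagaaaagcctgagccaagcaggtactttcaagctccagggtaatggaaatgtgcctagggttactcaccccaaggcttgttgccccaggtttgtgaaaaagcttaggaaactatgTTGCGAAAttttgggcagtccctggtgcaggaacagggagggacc
Both strands were searched for TGACGTCA, the cAMP response element bound by the CREB and ATF family, for the shorter TGACG that it contains, for the AP-1 motif TGANTCA, the STAT motif TTCNNNGAA, the C/EBP-type motif TTGCNNAA and the TATA box TATAAA. The *C3* window held 1 match, TTGCGAAA, from 45 to 38 bases before the start, and the *Serpina3n* window held no match to these 6 motifs. Among 32851 RefSeq windows of the same length, 9.56% held TTGCNNAA, 7.02% TTCNNNGAA, 6.75% TGANTCA, 1.55% TGACGTCA, 17.8% TGACG and 12.4% TATAAA. Of the 8 genes, 4 had an entry. The other 2 were *C1ra*, with no match, and *C1s1*, which has 2 annotated starts and a TTGCNNAA match on the opposite strand, read as TTAGGCAA, from 242 to 235 bases before the farther upstream start. *C4b*, *Cfb*, *Serping1* and *Masp1* had no entry. These matches describe letters in a short window and say nothing about binding.

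The 8 genes did not move as a block. *Serpina3n* and the thioester protein genes *C4b* and *C3* were lower in iCreb5, the groups overlapped broadly for the C1r, C1s, factor B and C1 inhibitor genes, and *Masp1* was higher on average in iCreb5. The groups did not overlap for 2 of the 8, *Serpina3n* and *C4b*, both lower in iCreb5. Among all 16733 genes tested, 4.75% had groups that did not overlap, 1.92% with iCreb5 lower and 2.83% with iCreb5 higher. The median log2 difference, iCreb5 minus tdTomato, was -0.27 over the 8 genes and 0.00 over all genes tested. Because the cells were sequenced in bulk, fewer cells of a type and less RNA per cell cannot be told apart for any of these genes.

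**Figure D1:**
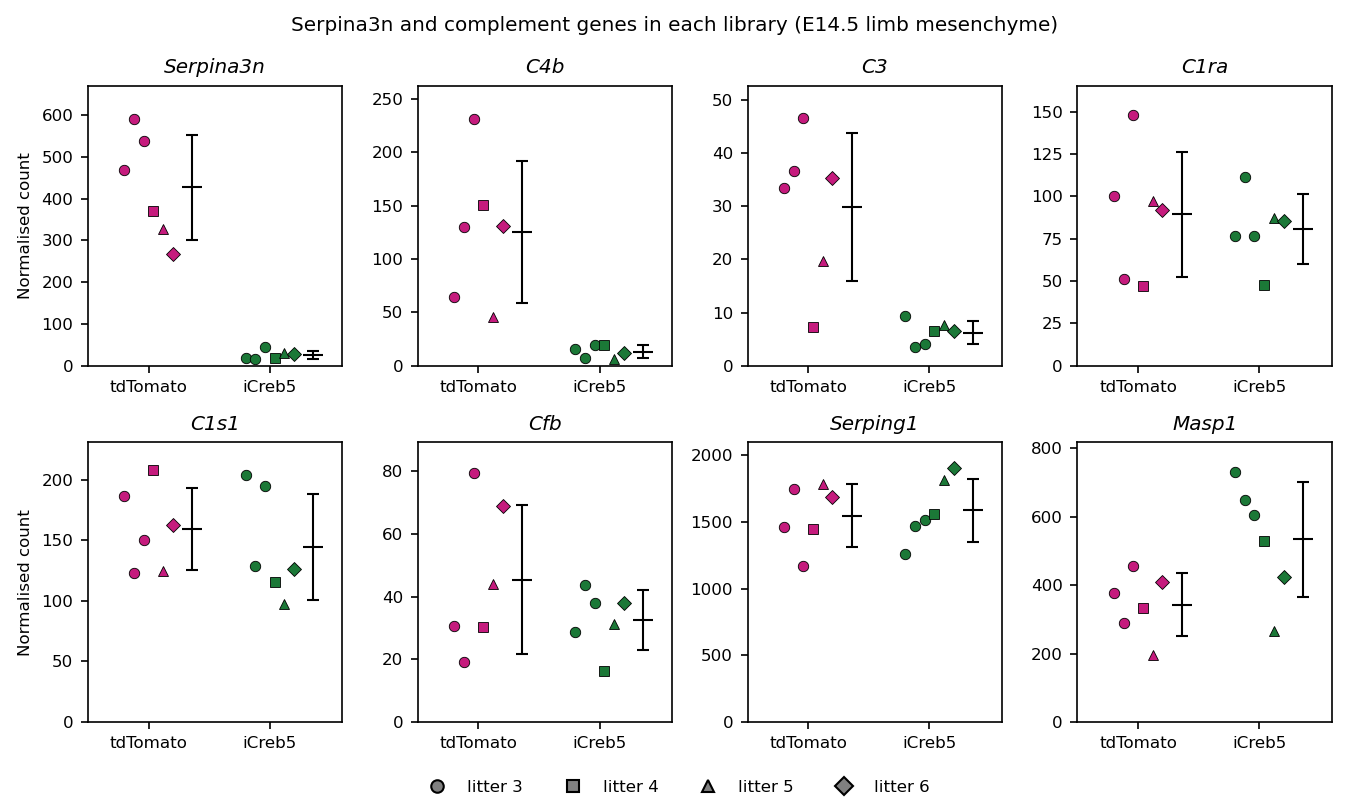
Normalised count (vertical axes, starting at 0) of each of the 8 genes in each library, tdTomato in magenta and iCreb5 in green, with the symbol shape marking the litter and the bars giving mean ± SD over 6 libraries. *Serpina3n* and *C4b* show no overlap between the groups, at no more than 44.0 and 19.7 in iCreb5, while the other 6 genes overlap.

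*Serpina3n* (ENSMUSG00000021091, mm10 chromosome 12, 104406729 to 104414329, plus strand) encodes the secreted serpin. Its normalised count in the tdTomato libraries was 268 at the lowest, 419 at the median and 592 at the highest, and in the iCreb5 libraries it was 16.1, 22.8 and 44.0. The lowest tdTomato library, 6d, was thus well above the highest iCreb5 library, 3c. The means were 427 ± 126 in tdTomato and 25.6 ± 10.5 in iCreb5 (SD, n = 6), a log2 difference of -4.04 ± 0.27 (SE) on the log2(value + 1) scale, or 16.4-fold higher in tdTomato. These values rest on 14 to 87 recovered reads per iCreb5 library and 168 to 1197 per tdTomato library, so the gene was measured in every library of both groups. Within tdTomato the 3 libraries of litter 3 (469, 592 and 539) were all above those of litters 4, 5 and 6 (369, 327 and 268). Within iCreb5 no such order was seen, with 18.5, 16.1 and 44.0 in litter 3 against 18.3, 29.7 and 27.1. The log2 difference was -4.43 in litter 3, -4.26 in litter 4, -3.42 in litter 5 and -3.26 in litter 6. This change between litter 3 and litters 4 to 6 was tested as an interaction, which the choice of genes had not used, and it came to 0.78 ± 0.52 (SE; limma, Benjamini-Hochberg adjusted p = 0.648).

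The neighbours of *Serpina3n* are a cluster of close copies on chromosome 12, so reads could be divided between them in counting. Of 10 other *Serpina3* genes, 3 were at 0 in all 12 libraries and 9 did not reach the filter. The 1 that did, *Serpina3g* (104236245 to 104241939), an intracellular member found in lymphocytes and haematopoietic cells, fell from 71.2 ± 24.1 in tdTomato to 22.9 ± 8.87 in iCreb5 (SD, n = 6; log2 difference -1.64 ± 0.35 SE, limma adjusted p = 0.00747). That call was lost in both sets of litters, at adjusted p = 0.11 in litter 3 and 0.0789 in litters 4 to 6. *Serpina3m*, which lies nearest on the upstream side, reached at most 6.85 in any library.

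*C4b* (ENSMUSG00000073418, chromosome 17, 34728380 to 34743882, minus strand) encodes complement C4, the thioester protein cut by C1s and by MASP proteases. The tdTomato libraries ran from 45.6 to 232 with a median of 131, and the iCreb5 libraries from 5.94 to 19.7 with a median of 13.8. The groups did not overlap, although tdTomato spread over a wide range, with 5b and 3a (64.2) lowest and 3c highest. The means were 126 ± 66.4 in tdTomato and 13.2 ± 5.97 in iCreb5 (SD, n = 6), a log2 difference of -3.08 ± 0.41 (SE), or 8.48-fold higher in tdTomato. Counts were thin in iCreb5, with 6 to 39 recovered reads per library against 23 to 263 in tdTomato. The difference was much the same in each litter, at -3.18, -2.89, -2.75 and -3.31 for litters 3, 4, 5 and 6, with an interaction of 0.20 ± 0.72 (SE; limma adjusted p = 0.950). The close copy *C4a*, annotated here as a processed transcript, averaged 5.38 in iCreb5 and 1.24 in tdTomato and did not reach the filter.

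*C3* (ENSMUSG00000024164, chromosome 17, 57203970 to 57228136, minus strand) encodes the protein on which all complement pathways converge. Its level was low throughout, with a lowest, median and highest normalised count of 7.35, 34.4 and 46.6 in tdTomato and 3.45, 6.52 and 9.27 in iCreb5. The groups overlapped because of a single library: tdTomato 4a, at 7.35 from 8 reads, lay below iCreb5 3a, at 9.27 from 11 reads, and iCreb5 5, at 7.64. The other 5 tdTomato libraries ran from 19.8 upward and lay above every iCreb5 library. Means were 29.9 ± 13.97 and 6.24 ± 2.19 (SD, n = 6), a log2 difference of -1.96 ± 0.45 (SE), or 3.89-fold higher in tdTomato. With 3 to 11 reads per iCreb5 library, the added 1 shrinks this difference. By litter it was -2.69 in litter 3 and -0.16, -1.27 and -2.26 in litters 4, 5 and 6, averaging -1.23 over those 3. The interaction of 1.46 ± 0.84 (SE) did not pass (limma adjusted p = 0.615). *C4b* and *C3* parted in tdTomato 4a, which was the lowest for *C3*, from 8 reads, and the second highest for *C4b*. Among the other 5 tdTomato libraries, 5b was lowest, 3a next and 3c highest for both genes.

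**Figure D2:**
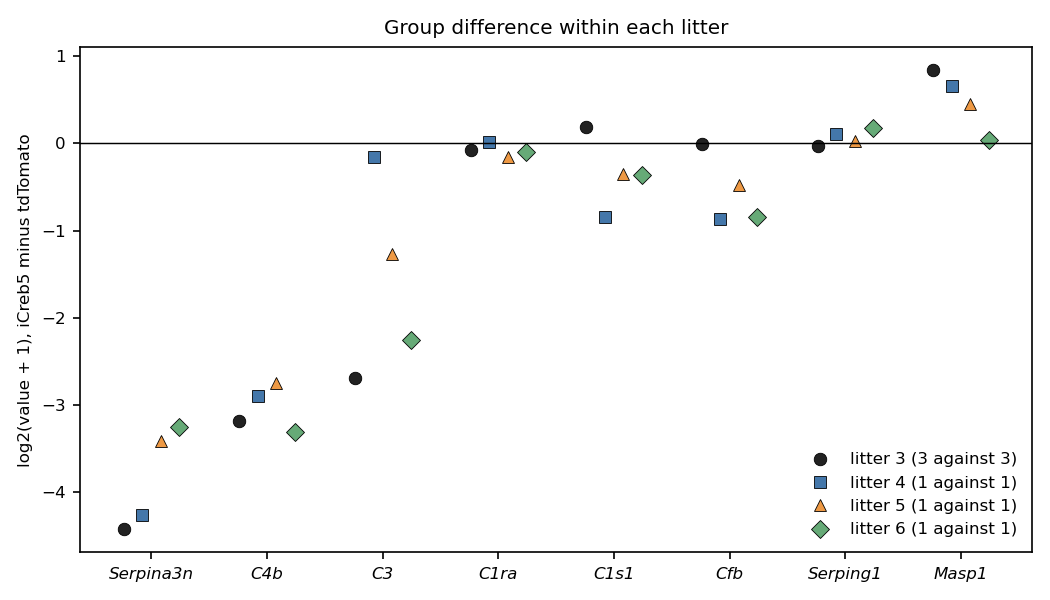
Difference in mean log2(value + 1), iCreb5 minus tdTomato (vertical axis), for each gene within each litter, with 3 libraries of each group in litter 3 and 1 of each in litters 4, 5 and 6. *Serpina3n* lay between -4.43 and -3.26 and *C4b* between -3.31 and -2.75, while *C3* ran from -2.69 to -0.16. *C1s1*, *C1ra* and *Serping1* had points on both sides of 0.

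The proteases that start the classical pathway are encoded side by side on chromosome 6. *C1ra* (ENSMUSG00000055172, 124512405 to 124523443, plus strand) encodes C1r, which activates C1s. Its normalised count ran from 46.9 to 148 in tdTomato (median 94.7) and from 47.4 to 111 in iCreb5 (median 81.1), so that the iCreb5 range lay inside the tdTomato range. The log2 difference was -0.08 ± 0.29 (SE), with -0.08, 0.02, -0.15 and -0.10 in litters 3 to 6 and an interaction adjusted p of 0.998 in limma. *C1s1* (ENSMUSG00000038521, 124530345 to 124542359, minus strand) encodes C1s, the protease that cuts C4 and C2. It ran from 123 to 209 in tdTomato (median 157) and from 97.6 to 204 in iCreb5 (median 128), again with broad overlap. Its log2 difference was -0.17 ± 0.22 (SE), with 0.19 in litter 3 against -0.85, -0.35 and -0.36 in litters 4, 5 and 6, and the interaction of -0.71 ± 0.38 (SE) had a limma adjusted p of 0.592, the lowest among the 8 genes. The copies *C1rb* (0 in iCreb5 and 1.40 in tdTomato on average) and *C1s2* (4.95 and 3.08) did not reach the filter, and an antisense gene over *C1s1*, *Gm16567*, averaged 1.24.

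*Masp1* (ENSMUSG00000022887, chromosome 16, 23449417 to 23520815, minus strand) encodes MASP-1 and, by alternative splicing, MASP-3 and a shorter inhibitor form, which counts per gene cannot separate. Its lowest, median and highest normalised counts were 195, 355 and 455 in tdTomato and 267, 567.8 and 731 in iCreb5. The groups overlapped, with iCreb5 5 (267) and 6 (423) within the tdTomato range and the other 4 iCreb5 libraries above all 6 tdTomato libraries. Means were 343 ± 92.7 and 534 ± 168 (SD, n = 6), a log2 difference of 0.61 ± 0.25 (SE), or 1.53-fold higher in iCreb5. It was the only one of the 8 genes that was higher in iCreb5 in all 4 litters, at 0.84, 0.66, 0.45 and 0.04 for litters 3 to 6, while *Serpina3n*, *C4b*, *C3* and *Cfb* were lower in all 4. The interaction was -0.45 ± 0.29 (SE; limma adjusted p = 0.634). Litter 5 gave the lowest *Masp1* library of both groups, at 267 in iCreb5 and 195 in tdTomato. On the opposite strand the locus overlaps *Rtp4* (mean 51.4 over the 12 libraries) and *Gm45338* (mean 16.9), and whether counting used strand was not given in the sources used here.

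*Cfb* (ENSMUSG00000090231, chromosome 17, 34856374 to 34862518, minus strand), encoding factor B, lies beside *C2* in the same major histocompatibility region as *C4b*. It ran from 19.3 to 79.5 in tdTomato (median 37.4) and from 16.2 to 43.7 in iCreb5 (median 34.6). The groups overlapped, with only tdTomato 3c, 6d (68.8) and 5b (44.1) above all iCreb5 libraries. The log2 difference was -0.37 ± 0.36 (SE), and although negative in every litter it was -0.0015 in litter 3 and -0.87, -0.48 and -0.85 in litters 4, 5 and 6 (interaction -0.73 ± 0.69 SE, limma adjusted p = 0.753). The gene rested on 11 to 75 reads per library.

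*Serping1* (ENSMUSG00000023224, chromosome 2, 84765387 to 84775444, minus strand) encodes C1 inhibitor and was the most abundant of the 8 in both groups. Its lowest, median and highest counts were 1169, 1572 and 1782 in tdTomato and 1260, 1540 and 1906 in iCreb5. The ranges nearly coincided, and the log2 difference was 0.04 ± 0.13 (SE), with -0.03, 0.11, 0.03 and 0.18 in litters 3 to 6 (interaction 0.14 ± 0.22 SE, limma adjusted p = 0.873). It also varied least between libraries, with a coefficient of variation of 14.9% in iCreb5 and 15.1% in tdTomato, against 41.0% and 29.6% for *Serpina3n* and 45.1% and 52.9% for *C4b*. For none of the 8 genes did the interaction with litter set pass, either adjusted or at an unadjusted p under 0.05, and adjusted p ran from 0.592 to 0.998 (limma). Over all genes tested the interaction was called for 0 genes (0.0%).

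Per kilobase of exon the order of the 8 genes differed between the groups. Exon length here joins all annotated exons of a gene. For the alternatively spliced *Masp1*, at 9833 bases, the level per kilobase may therefore be understated. In tdTomato, normalised counts per kilobase were 666 for *Serping1*, 207 for *Serpina3n*, 50.96 for *C1s1*, 34.9 for *Masp1*, 29.98 for *C1ra*, 22.0 for *C4b*, 16.1 for *Cfb* and 5.80 for *C3*. Library ranges separated *Serping1* from *Serpina3n* and *Serpina3n* from *C1s1*, and every later neighbour in that order overlapped the one before. In iCreb5 the order was *Serping1* (683), *Masp1* (54.4), *C1s1* (46.2), *C1ra* (27.1), *Serpina3n* (12.4), *Cfb* (11.5), *C4b* (2.33) and *C3* (1.21). There the ranges separated *Serping1* from *Masp1* and *Cfb* from *C4b*, and the other neighbours overlapped. The 2 serpins therefore stood first and second per kilobase in tdTomato, whereas in iCreb5 *Serpina3n* stood below *C1ra* and its range overlapped those of *C1ra* and *Cfb*.

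**Figure D3:**
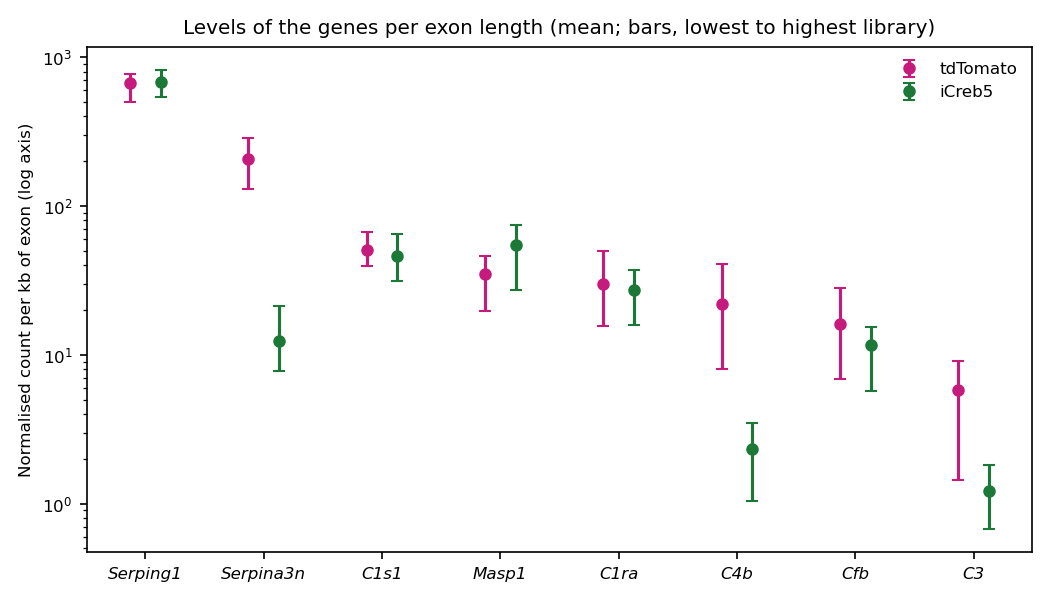
Normalised count per kilobase of exon (log axis) for the 8 genes, in tdTomato order; points are means over 6 libraries and bars run from the lowest to the highest library. *Serping1* stands at 666 in tdTomato and 683 in iCreb5, and *Serpina3n* at 207 against 12.4.

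How the genes varied from library to library was described by correlating log2 values over the 12 libraries after subtracting each group's mean, which removes the group difference. Over the 28 pairs the correlation ran from -0.77 to 0.83 with a median of 0.03. The highest was between *C1ra* and *Cfb* (0.83), followed by *C1s1* with *Masp1* (0.68) and *C4b* with *Masp1* (0.61), and the lowest was between *Serping1* and *Masp1* (-0.77). Only 1 pair was above 0.7. The libraries share depth and litter between genes, and with 12 libraries these coefficients are descriptions.

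The genes most alike in pattern to *Serpina3n* were then sought among 12411 genes with a mean of at least 50. With the group difference kept in, they were *Col11a1* (r = 0.986), *Chst11* (0.968), *Acan* (0.968), *Hapln1* (0.961) and *Ntm* (0.960), of which *Col11a1*, *Acan* and *Hapln1* encode cartilage matrix proteins and *Chst11* encodes a chondroitin sulfotransferase. For *C4b* they were *Arsi* (0.967), *Acan* (0.963), *Col9a2* (0.962), *Extl1* (0.958) and *Col9a1* (0.951), with 3 cartilage matrix genes among them. With the group means subtracted none of these genes stayed among the first 5. *Serpina3n* then ran closest to *Aldh1l1* (0.851), *Ptpre* (0.823), *Crybg3* (0.750), *Zfp870* (0.714) and *Akr1c14* (0.705), and *C4b* closest to *Pcsk7* (0.971), *Nfkb2* (0.968), *Kifc3* (0.967), *Pear1* (0.965) and *St6galnac6* (0.953). These are Pearson correlations over 12 libraries that share a group, a litter and a depth for each point. Picked as the highest of 12411, such values can also be high among unrelated genes, which was not tested.

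Markers of cell types moved between the same libraries, all of which came from cells sorted by fluorescence. The reporter differed with the group, GFP in iCreb5 and tdTomato in the other, so its part cannot be told apart from that of the *Creb5* transgene. A call means a limma adjusted p under 0.05, which 3.87% of all 16733 genes tested passed as higher and 2.85% as lower. All 10 chondrocyte markers were lower in iCreb5, with a summed normalised count of 89805 to 121315 against 170864 to 370051 in tdTomato, and 7 of 8 tested osteoblast markers were lower, at 4107 to 15496 against 11354 to 47152. All 14 leukocyte markers were higher, at 2357 to 9142 against 668 to 1122, and 5 of 8 endothelial markers were higher, at 1434 to 4041 against 1139 to 1629. The leukocyte markers *Ptprc*, *Aif1*, *Trem2* and *Cd52* reached 10 in 6 iCreb5 but only 2, 3, 3 and 1 tdTomato libraries. They entered the fit only through iCreb5, so their place among the 14 is a description, and they are named here after their values were seen. Of 12 mesenchyme markers 1 was higher, *Tbx4*, and 11 did not pass, and the sums overlapped (347070 to 620937 in iCreb5 and 331315 to 597467 in tdTomato). Those sums were mostly *Col1a1* and *Col3a1*, at means of 171810 and 221560 in iCreb5 and 182510 and 192220 in tdTomato. Of the hepatocyte markers, *Fgb* and *Ahsg* were at 0 in all 12 libraries, *Afp* and *Ttr* reached at most 6.09 and 4.56, and *Alb* and *Apoa1* averaged 38.3 and 14.7 in iCreb5 and 27.1 and 8.43 in tdTomato and did not pass (limma adjusted p = 0.551 and 0.53). Their sum of 522 to 835 against 139 to 298 was mostly that of *Trf*, which other cells also express and which was the 1 hepatocyte marker called higher. Of the remaining lists, 0 of 7 tested skeletal muscle, 0 of 6 red cell and 0 of 7 epidermis markers passed, and 1 of 6 Schwann cell and melanoblast markers, *Sox10*, was lower. Lists with 0 or 1 called were too short to set apart from the shares over all genes. With litter as a block, the mesenchyme marker *Msx1* was lower (limma adjusted p = 0.0386, against 0.171 without it) and the endothelial marker *Esam* higher (0.0149 against 0.0535), both named here after their values were seen. The part of these cell types in the levels of *Serpina3n*, *C4b* and *C3* was not tested.

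**Figure D4:**
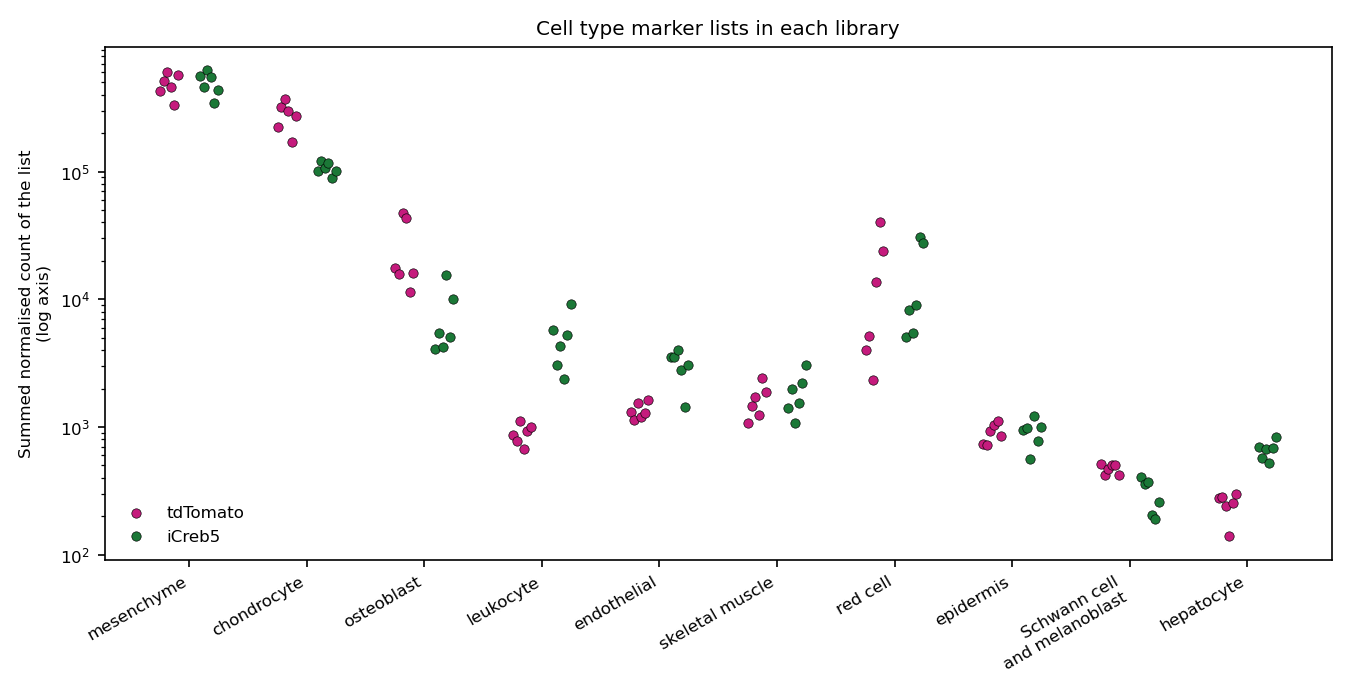
Summed normalised count of each cell type marker list (log axis) in each tdTomato library (magenta) and iCreb5 library (green). The chondrocyte sums of iCreb5, up to 121315, all lie below those of tdTomato, and the leukocyte sums of iCreb5, from 2357, all lie above those of tdTomato.

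Outside the 8 genes, 140 genes of complement, serpins and their surroundings were read in 8 lists. Of these, 72 were tested: 11 were higher and 8 lower in iCreb5, and 53 did not pass. The 8 lower genes include *Vtn*, which reached the filter only through tdTomato. The 11 higher genes include *Fcna*, which reached it only through iCreb5. The other 68 did not reach the filter, and 21 of them were at 0 in every library. Among all genes tested, 6.72% passed (limma, Benjamini-Hochberg adjusted p under 0.05), 3.87% higher and 2.85% lower. With litter as a block these shares were 5.13% higher and 4.35% lower. The median log2 difference of the 72 genes was 0.10, against 0.00 over all genes tested.

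Among the genes that feed into C1r and C1s, the C1q chains rose. Of 16 recognition molecules and initiating proteases 6 were tested and 4 were higher, with a median log2 difference of 2.89 over those 6. *C1qa*, *C1qb* and *C1qc*, whose products form the C1q recognition molecule and are made largely by macrophages, rose to 326 ± 217, 1164 ± 702 and 804 ± 458 in iCreb5 from 34.3 ± 8.09, 133 ± 40.5 and 94.6 ± 29.8 in tdTomato (SD, n = 6; limma adjusted p = 0.000154, 5.42e-05 and 4.03e-05). Their log2 differences of 2.95, 2.95 and 2.93 stood beside -0.08 for *C1ra* and -0.17 for *C1s1*. *Fcna*, a ficolin gene of macrophages, measured 53.4 ± 27.4 in iCreb5 and 9.48 ± 9.19 in tdTomato. It reached 10 in 6 iCreb5 and only 2 tdTomato libraries, so it entered the fit only through the group where it was high. The place of *Fcna* among the 4 higher genes is a description. Its call was also lost within litter 3 alone (adjusted p = 0.259) and without iCreb5 5 and 6 (0.0759). *C2*, which pairs with C4 in the C3 convertase and neighbours *Cfb*, measured 56.9 ± 16.9 in iCreb5 and 110 ± 31.2 in tdTomato (log2 difference -0.94 ± 0.27 SE, adjusted p = 0.0513). *C2* passed without tdTomato 3c (adjusted p = 0.0168), with edgeR (0.0432), with DESeq2 (0.00608) and with a pseudocount of 5 (0.0483). *C1rl*, beside *C1ra*, did not pass (log2 difference -0.39, adjusted p = 0.577). The leukocyte markers, some of which entered the fit only through iCreb5, were higher in the same libraries by a median log2 difference of 2.47. Their part in the C1q rise and the *Fcna* difference was not tested.

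The convertases and terminal components past C3 were mostly below the filter. Of 9 such genes 2 were tested. *Cfp*, encoding properdin, which stabilises the alternative pathway convertase and comes from myeloid cells, rose from 33.0 ± 15.6 to 84.6 ± 37.1 (log2 difference 1.36, limma adjusted p = 0.0275). The call for *Cfp* was lost without iCreb5 3a, 3c or 6 or without tdTomato 3a, 3c or 4a (adjusted p 0.0561 to 0.0681), within each set of litters (0.0759 and 0.123), without iCreb5 5 and 6 (0.113) and with no filter (0.0653). *C8g* did not pass (log2 difference -0.07, adjusted p = 0.936), and *Cfd*, *C8a* and *C8b* were at 0 in every library.

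Of 17 regulators 10 were tested, 2 were higher and 2 lower, with a median log2 difference of -0.08. *Vtn*, encoding vitronectin, an inhibitor of the terminal complex and a matrix adhesion protein, measured 62.4 ± 22.1 in tdTomato and 4.52 ± 2.38 in iCreb5 (SD, n = 6), a log2 difference of -3.67. It reached 10 in 6 tdTomato and 0 iCreb5 libraries, so it entered the fit only through the group where it was high, and its place among the 2 lower genes is a description. The membrane regulators *Susd4* (log2 difference 0.77, adjusted p = 0.012) and *Csmd3* (0.82, adjusted p = 0.027) rose. The call for *Susd4* was lost within litter 3 (0.0635) and within litters 4 to 6 (0.10), and that for *Csmd3* within litter 3 (0.0605), within litters 4 to 6 (0.342), and without iCreb5 3a, 3b, 3c or 6 or tdTomato 3b (0.054 to 0.0677). Without tdTomato 3a and 5b the adjusted p for *Csmd3* was 0.0852, and with no filter it was 0.0516. The abundant *Clu*, encoding clusterin (-0.09, adjusted p = 0.782) and *Cr1l* (-0.07, adjusted p = 0.835) did not pass, as *Serping1* had a difference of 0.04.

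Of 12 genes listed as receptors or binding proteins for complement 8 were tested, 3 were higher and 0 lower at this threshold, with a median log2 difference of 1.36. *C5ar1* and *C3ar1*, the anaphylatoxin receptors of myeloid cells, rose from 14.4 ± 7.70 to 211 ± 165 and from 28.02 ± 18.0 to 260 ± 197 (SD, n = 6; log2 differences 3.69 and 3.17, limma adjusted p = 0.000787 and 0.000823), while *C3*, the source of the ligand of C3ar1, was lower. *Cd93*, a receptor gene of endothelial and myeloid cells, rose from 48.6 ± 20.3 to 120 ± 52.6 (adjusted p = 0.0338), a call lost without any one of iCreb5 3a, 3b, 3c and 6 and tdTomato 3a, 3b, 4a and 5b (0.0516 to 0.0869). The call for *Cd93* was also lost within litters 4 to 6 (log2 difference 0.76, adjusted p = 0.268), without tdTomato 3a and 5b (0.111) and with no filter (0.0714). *Calr* (adjusted p = 0.568) and *Lrp1* (0.962) did not pass. Leukocyte and endothelial markers were higher in the same libraries, and their part was not tested.

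Serpins outside the *Serpina3* cluster inhibit a wide range of proteases or act as chaperones. Of 31 genes 13 were tested, 0 were higher and 3 lower, with a median log2 difference of -0.03. *Serpinb9*, an intracellular granzyme B inhibitor, fell from 344 ± 99.7 to 111 ± 9.49 (log2 difference -1.58 ± 0.19 SE, limma adjusted p = 6.31e-05). *Serpinb1a*, an inhibitor of neutrophil proteases, fell from 410 ± 87.1 to 219 ± 76.4 (-0.94, adjusted p = 0.0117), and *Serpine2*, encoding protease nexin 1, fell from 12965 ± 1552 to 8892 ± 1294 (-0.55, adjusted p = 0.00672). Both calls were lost within litters 4 to 6 (0.0808 and 0.146). *Serpinh1*, the collagen chaperone (-0.27, adjusted p = 0.416), and *Serpinf1* (-0.03, adjusted p = 0.933) did not pass. Of 14 serine proteases listed as possible targets of Serpina3n or C1 inhibitor, 6 were tested and 0 passed in limma. Whether each of them is blocked by either inhibitor was not tested. With litter as a block 2 of them, the mast cell protease genes *Cma1* and *Tpsb2*, were higher (adjusted p = 0.00102 and 0.000386, against 0.262 and 0.164 without it; *Tpsb2* is named here after its values were seen). *Cma1* measured 716 ± 493.4 in iCreb5 and 370 ± 279 in tdTomato, and *Plat* had a log2 difference of 0.22 (adjusted p = 0.31).

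Of 31 acute phase and gp130 signalling genes, many of which respond to the same cytokines as *Serpina3n* and *C3*, 26 were tested, 1 was higher and 2 were lower, with a median log2 difference of 0.00. *Osmr*, encoding the oncostatin M receptor, fell from 195 ± 108 to 50.02 ± 30.8 (log2 difference -1.97 ± 0.40 SE, limma adjusted p = 0.00561), though tdTomato 5b lay below the highest iCreb5 libraries, and the call was lost within litters 4 to 6 (0.0596). *Steap4*, a metalloreductase gene, fell from 682 ± 143 to 398 ± 55.1 (-0.76, adjusted p = 0.00504), which was lost within litter 3 (0.0556) and within litters 4 to 6 (0.0646). *Cd14*, a monocyte coreceptor gene, rose from 83.5 ± 38.2 to 436 ± 301 (2.20, adjusted p = 0.00167). *Il11ra1* (0.20, adjusted p = 0.412) and *Jak1* (0.23, adjusted p = 0.373) did not pass. With litter as a block *Lifr* of this list also passed, lower in iCreb5 (limma adjusted p = 0.031). So did *Cd59a* of the complement regulators, higher in iCreb5 (0.0447), and both are named here after their values were seen.

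**Figure D5:**
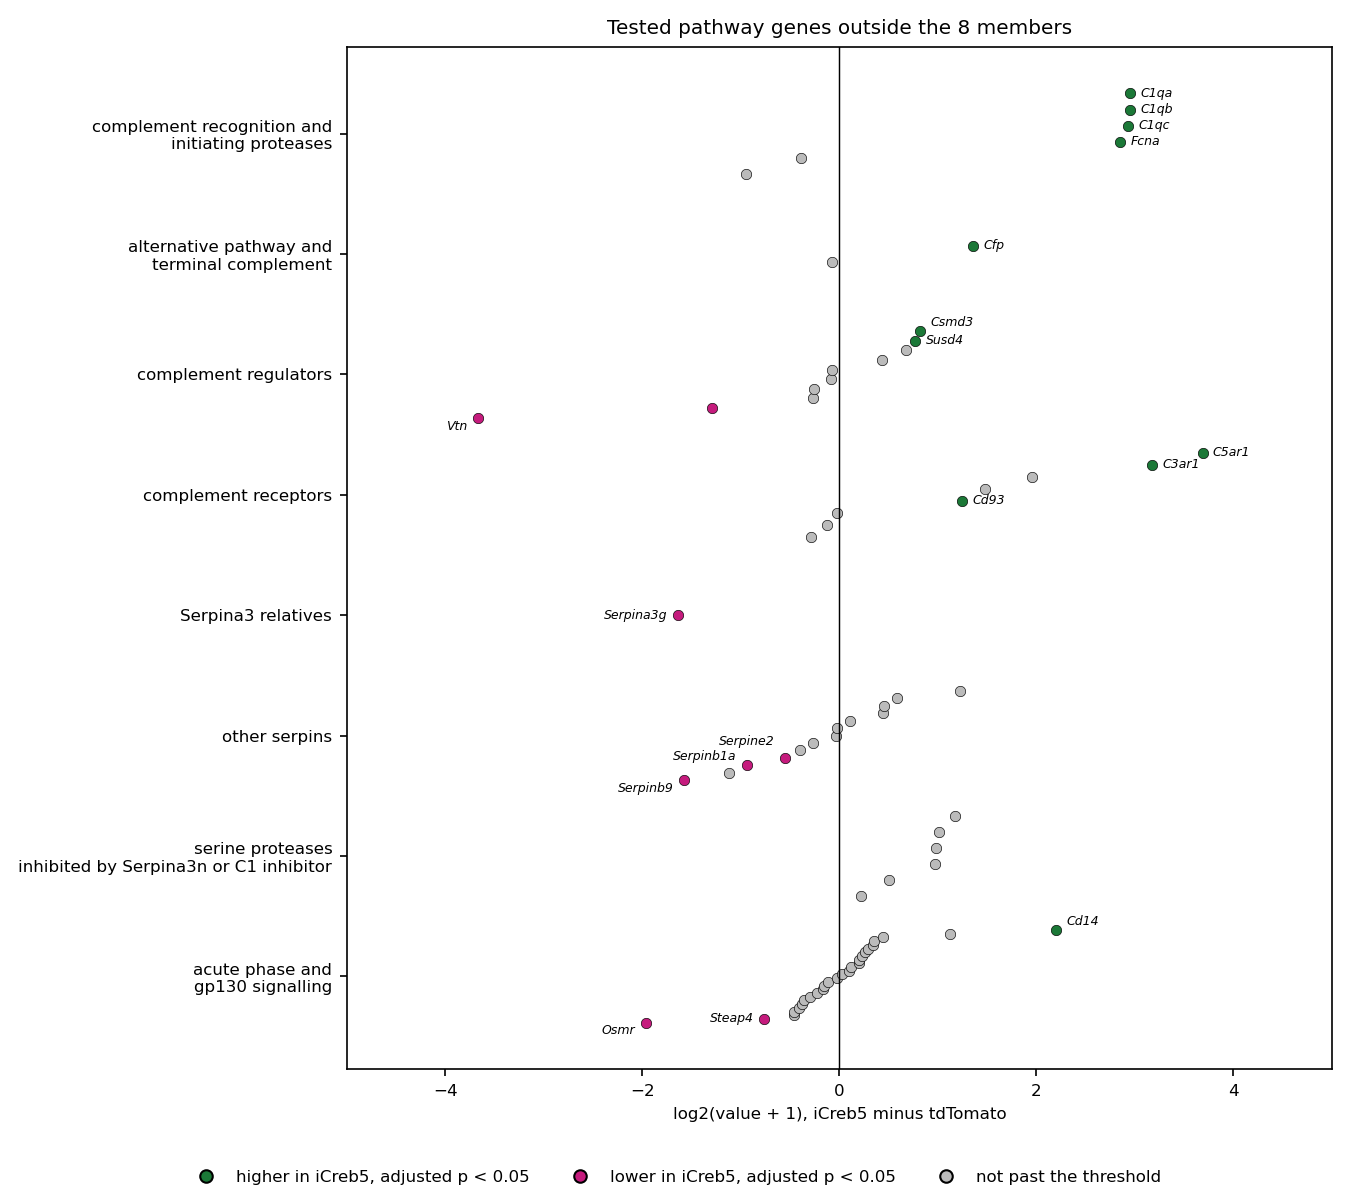
Difference in mean log2(value + 1), iCreb5 minus tdTomato (horizontal axis), for the 72 tested genes of the 8 lists; green and magenta points passed an adjusted p under 0.05 in limma and grey points did not. *Vtn*, at -3.67, reached the filter only through tdTomato, and the other genes lower in iCreb5 lie between -1.97 (*Osmr*) and -0.55 (*Serpine2*). The 11 higher ones include the 3 C1q chains near 2.95 and *Fcna*, which reached the filter only through iCreb5.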

How the data were processed

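Reads were processed by the authors, and the tools FastQC, STAR, Salmon and DESeq2 and the build mm10 are listed, with no version or role, per the submitters' processing notes. Values in the deposited table are a normalised signal, which the authors' values show to be gene counts divided by a size factor per library: every value was a whole multiple of what 1 read is worth, and whole reads were recovered for 100% of values within a tolerance of 1e-06. Strand use, and how transgene reads were handled, were not given in the sources used here. A P0 table was left out because its 8 columns match none of the labelled samples. In the table used, 123 genes have no symbol.

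Groups came from the sample titles. The fit was limma (version 3.58.1, R version 4.3.3), two-sided and with a mean-variance trend, on log2(value + 1) without covariates. It covered the 16733 genes with a value of 10 or more in 6 or more of 12 libraries, at a Benjamini-Hochberg adjusted p under 0.05. The plan allowed for whole counts, and the test for normalised values was used because the table is normalised. It called 648 genes higher and 477 lower in iCreb5. Of the alternatives on recovered reads, edgeR 4.0.16 (quasi-likelihood) called 641 higher and 471 lower, and DESeq2 1.42.0 called 922 and 715. The interaction fit had litter as a term. The fit was tested on simulated data. Pairing comes from the litter label: over 12 same-litter pairs of an iCreb5 and a tdTomato library, deviations from the group means correlated at -0.242 to 0.346 (median 0.0732), against a median of -0.033 over 24 pairs from different litters. A p-value here reflects only the spread among 12 libraries, and the labels do not say beyond the litter whether they are separate embryos.

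The 8 genes, the 8 pathway lists and the 10 marker lists were chosen with earlier results of these data known. All 239 listed symbols matched. Besides the 8 genes, the text names up to 4 genes per list past the threshold with the largest difference and the 2 most abundant that did not pass, the 5 genes most alike to *Serpina3n* and to *C4b*, and genes where a count is 5 or fewer. Of the listed genes, 1 that the rule names is not reported here. Exon lengths and positions come from the GENCODE annotation of mm10 and promoters from RefSeq. Alternatives were another pseudocount, filter, scaling or tool, litter as a block, each set of litters, and leaving out libraries.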

Additional observations from a re-analysis of the deposited data

Results flagged for a closer look

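Over 80 groups of 6 libraries (40 genes named in the text, in both groups), 2 had a library that stood apart from the other 5 by a gap too large a share of the group's range, where chance gives about 1 in 20. *Cd14* measured 158 in tdTomato 5b, above 51.1 to 81.0 in the other tdTomato libraries, and *Serpinh1* measured 226900 in tdTomato 3b, above 118334 to 157670. No library of *Serpina3n*, *C4b*, *C3*, *C1ra*, *C1s1*, *Cfb*, *Serping1* or *Masp1* stood apart by this measure.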

How the results depend on the processing

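*Serpina3n*, *C4b*, *C3* and *Masp1* kept their direction in every alternative that gave a value. *C4b*, *C3* and *Cfb* gave none at a filter of 50. No named pathway gene that passed the threshold reversed its direction. Leaving out 1 library gave log2 differences of -4.21 to -3.93 for *Serpina3n*, -3.33 to -2.87 for *C4b*, -2.30 to -1.80 for *C3*, -0.57 to -0.17 for *Cfb*, -0.28 to -0.06 for *C1s1*, -0.24 to 0.09 for *C1ra*, -0.04 to 0.10 for *Serping1* and 0.46 to 0.80 for *Masp1*. Values for *C1ra*, *C1s1* and *Serping1* thus lay on either side of 0 depending on the setting (*C1s1* 0.19 in litter 3). *C3* moved to -2.69 in litter 3 and -1.23 in litters 4 to 6, and the cause was not tested. Over all genes, leaving out 1 library gave 484 to 705 higher and 369 to 511 lower, and for the listed genes 8 to 11 higher and 8 to 9 lower. Litter as a replicate block called 859 genes higher and 728 lower, and among listed and marker genes it changed the calls of *Cd59a*, *Cma1*, *Tpsb2*, *Lifr*, *Msx1* and *Esam*, given with the results. Fewer libraries left 395 higher and 292 lower in litter 3 and 320 higher in litters 4 to 6, with 5 and 3 listed genes lower. Equal library totals gave 799 higher and 382 lower, against 648 and 477. Without tdTomato 3a and 5b, the shallowest libraries, *Serpina3n* was at -4.07 and *C4b* at -3.59, and without iCreb5 5 and 6 they were at -4.15 and -2.86; both sets were chosen after seeing the data. Interaction adjusted p for the 8 genes ran from 0.258 to 0.9996 over the alternatives. The value at 3 reads was 1.48 to 8.38 over all libraries and 1.52 to 3.45 over those of iCreb5. *C3* measured 3.45 to 9.27 in iCreb5, so counting error alone limits the precision of *C3* there.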
